A study of Arabidopsis thaliana with 17 samples.

Results

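SWEET genes encode sugar transporters of plant membranes. They were taken here as every gene whose annotated symbol begins with SWEET and that has a probe set of its own on the ATH1 array, an oligonucleotide array of Arabidopsis thaliana genes. This gave 15 genes of the 13350 genes with such a probe set, and each of the 15 had 1 probe set. One of them, SWEETIE, shares the name but is not a SWEET transporter, which leaves 14 transporters. Of these, 7 passed the filter on low signal and were tested (SWEET1, SWEET2, SWEET4, SWEET11, SWEET13, SWEET16 and SWEET17) and 7 did not (SWEET3, SWEET6, SWEET7, SWEET8, SWEET9, SWEET10 and SWEET14). SWEET15 and SWEET5 are annotated as SAG29 and AtVEX1 and so fall outside the name rule, although the RefSeq synonyms (assembly TAIR10.1) identify them. SWEET12 was not analysed here.

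The leaves came from mutants of STN7, the thylakoid kinase needed for state transitions and for long-term acclimation to light quality, and of PSAD and PSAE, subunits on the stromal side of photosystem I where ferredoxin is bound. All plants were 4 weeks old and rosette leaves were taken. The genotypes were the double mutant psad1-1 stn7-1 (3 arrays), the single mutants psad1-1 (2 arrays) and stn7-1 (3 arrays) with the wild type Col-0 (3 arrays), and the double mutant psae1-3 stn7-1 (2 arrays) and the single mutant psae1-3 (2 arrays) with the wild type Wassilewskija (2 arrays). Each array held RNA of 1 pool of 10 plants. Each mutation is represented by 1 allele, and the labels do not give the growth light or the parent accession of each mutant.

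SWEET proteins let sugars pass down their gradient in either direction and need no proton gradient, unlike the sucrose and hexose symporters. In a leaf they act at different membranes. SWEET11 and SWEET13 release sucrose from phloem parenchyma, the step before it is loaded into the phloem, SWEET1 carries glucose and SWEET4 hexoses across the plasma membrane, and SWEET2, SWEET16 and SWEET17 sit in the membrane of the vacuole, where cells store sugar.

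The values are scaled signals in arbitrary units, with the 2% trimmed mean of every array at 100 and a background of 8.15. The 17 arrays had been deposited at 2 scales, one for the 11 arrays of Col-0 and the mutants set against it and another for the 6 arrays of Wassilewskija and its mutants. No genotype was in both, so an effect of the accession and one of the set cannot be told apart, and each mutant was compared within its set. As the parents of the mutants are not given, a mixed accession background of a double mutant cannot be told apart from its mutations. The 3 comparisons with Col-0 share the Col-0 arrays, and both comparisons with Wassilewskija share its arrays. PSAE-1 checked the labels of 1 mutation: it read 5.25 and 10.4 in psae1-3 stn7-1 and 23.7 and 63.2 in psae1-3, against 5105 and 4913 in Wassilewskija. STN7 and PSAD1 were not checked by their own transcripts. The leaf genes RCA and PRK of the Calvin cycle had signals of at least 3559 and 3198 on all 17 arrays. The listed markers of mesophyll, companion cells, epidermis, xylem, flowers and roots were not analysed here. Of 8 listed guard cell markers FMA alone was, and it passed in no comparison (34.0 to 64.5 over the 17 arrays). Whether the share of a cell type moved with any SWEET gene was therefore not tested.

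SWEET2 (AT3G14770) and SWEET13 (AT5G50800) changed in opposite directions in all 3 mutants set against Col-0. SWEET2, a tonoplast sugar carrier, was 10.2-fold higher in psad1-1, 8.25-fold higher in psad1-1 stn7-1 and 2.04-fold higher in stn7-1. SWEET13, a sucrose exporter, was 6.78-fold lower in psad1-1, 5.16-fold lower in psad1-1 stn7-1 and 2.14-fold lower in stn7-1. Folds are ratios of geometric means. In leaf samples, fewer cells of a type and less transcript per cell cannot be told apart.

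The SWEET2 signal was 899, 818 and 771 in psad1-1 stn7-1, 949 and 1094 in psad1-1 and 220, 213 and 183 in stn7-1, against 101, 95.9 and 104 in Col-0. Its means were 829 ± 64.7 (SD, n = 3), 1021 ± 103 (n = 2), 205 ± 19.7 (n = 3) and 100.3 ± 4.07 (n = 3) in that order of genotypes. Every array of a mutant lay above every Col-0 array, and the arrays of stn7-1 lay between those of Col-0 and those of the lines with psad1-1. Tested with limma over all 13648 probe sets kept, with Benjamini-Hochberg adjustment, SWEET2 rose by 3.35 log2 in psad1-1 (SE 0.13 and adjusted p = 5.82e-11), 3.05 log2 in psad1-1 stn7-1 (SE 0.11, adjusted p = 4.42e-11) and 1.03 log2 in stn7-1 (SE 0.11, adjusted p = 0.000165). By size of change it stood at rank 22 of the 13648 probe sets from the highest in psad1-1, at rank 26 in psad1-1 stn7-1 and at rank 130 in stn7-1. All of these calls held under every alternative tried, the omission of each array included.

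**Figure D1:**
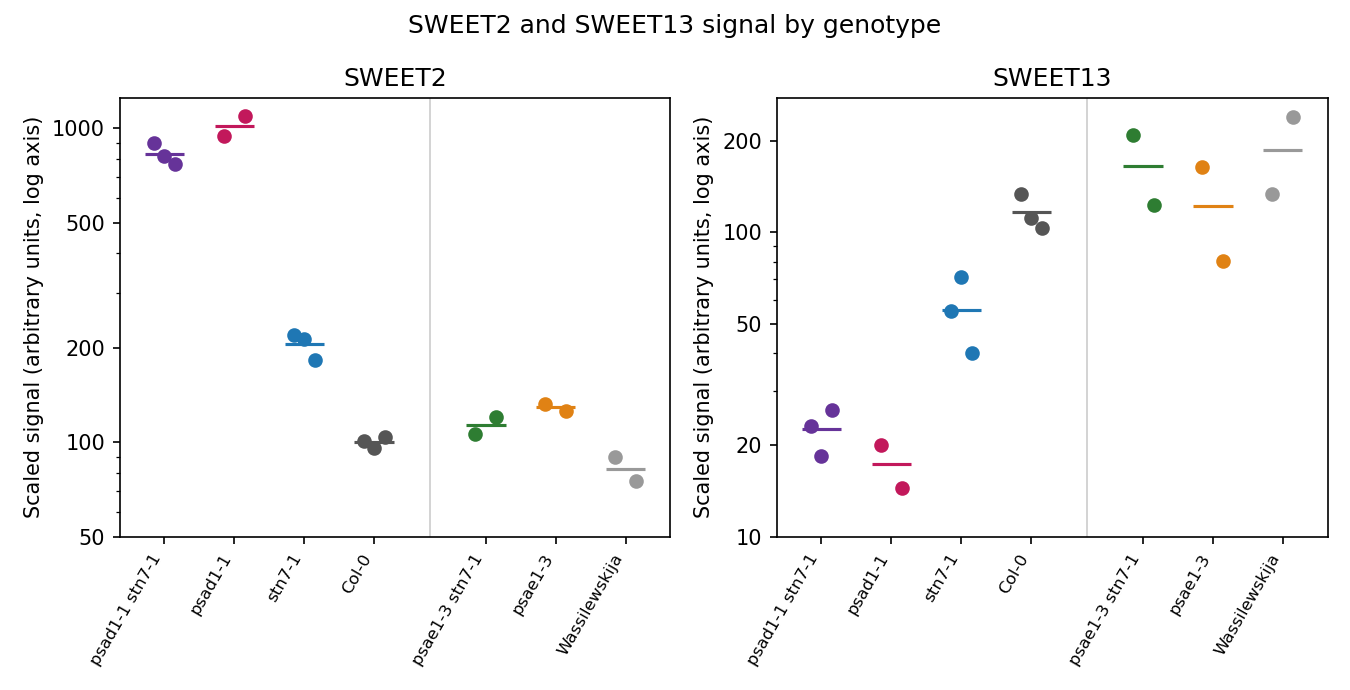
Scaled signal (arbitrary units, log axis) of SWEET2 (left) and SWEET13 (right) on each of the 17 arrays, by genotype; points are arrays, bars are genotype means, and the grey line separates the 2 array sets. SWEET2 is highest in psad1-1 (949 and 1094) and psad1-1 stn7-1 (771 to 899), where SWEET13 is lowest (14.5 to 26.1).

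The SWEET13 signal was 23.2, 18.5 and 26.1 in psad1-1 stn7-1, 20.03 and 14.5 in psad1-1 and 55.0, 71.4 and 40.2 in stn7-1, against 133, 112 and 104 in Col-0. No mutant array reached the lowest Col-0 array, and stn7-1 again held the place between. For SWEET13 the change was −2.76 log2 in psad1-1 (SE 0.33 and adjusted p = 6.94e-06), −2.37 log2 in psad1-1 stn7-1 (SE 0.29, adjusted p = 9.31e-06) and −1.10 log2 in stn7-1 (SE 0.29, adjusted p = 0.0161). The call in stn7-1 was lost with no filter on low signal (adjusted p = 0.0572) and without stn7-1 replicate C (adjusted p = 0.0665). All its values in these lines were above the background, the lowest being 14.5. In the lines with psad1-1 (14.5 to 26.1) they lay within the range of the SWEET genes below the filter in that set (2.69 to 29.1). The size of the fall there thus rests on signals near the background.

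The single mutations did not add up in the double mutant on the log2 scale. The stn7-1 change was smaller in the psad1-1 background than in Col-0 for SWEET2, by −1.33 log2 (SE 0.17, adjusted p = 0.00122, interaction term in limma), and this held under all alternatives. For SWEET13 the same term, which rests in part on the low signals of the psad1-1 lines, was 1.49 log2 (SE 0.44, adjusted p = 0.0378). It was lost under 12 of 21 alternatives, among them quantile normalization (adjusted p = 0.0686), no filter (0.105), no trend of the variance on the mean (0.0556) and quantile normalization within each set (0.0777). It was also lost without psad1-1 replicate B (0.177), stn7-1 replicate A or C (0.0661 and 0.0764), psad1-1 stn7-1 replicate A or C (0.0640 and 0.0726) or any 1 of the Col-0 arrays (0.0559 to 0.0595). These were 2 of the 7 tested SWEET genes, where 11.9% of all probe sets passed the interaction test.

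The double mutant psad1-1 stn7-1 differed from stn7-1 in both genes and passed against psad1-1 in neither. Against stn7-1, SWEET2 was 4.04-fold higher (2.01 log2, SE 0.11, adjusted p = 6.57e-09) and SWEET13 2.42-fold lower (−1.27 log2, SE 0.29, adjusted p = 0.00363), and no other SWEET gene passed. Of all probe sets 28.4% passed in that comparison. Against psad1-1, 0 of 7 SWEET genes passed in limma, where 2.06% of all probe sets passed. Of the 7, 2 had an unadjusted p under 0.05, a threshold at which the share of all probe sets is not given. The 2 were SWEET2 (−0.30 log2, SE 0.13, unadjusted p = 0.0303, adjusted p = 0.242) and SWEET1 (0.39 log2, SE 0.17, unadjusted p = 0.0380, adjusted p = 0.269). The SWEET2 arrays of psad1-1 stn7-1 all lay below those of psad1-1, and the SWEET13 arrays overlapped (0.39 log2, SE 0.33, adjusted p = 0.598). The order of the SWEET2 means was thus psad1-1, psad1-1 stn7-1, stn7-1 and Col-0, in which only the first neighbours did not pass the test against each other. The SWEET13 order was the reverse, with the same exception.

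In the psae1-3 lines SWEET2 also rose, with smaller changes, whose difference from those in the psad1-1 lines was not tested. It read 106 and 121 in psae1-3 stn7-1 and 133 and 125 in psae1-3, against 89.8 and 75.0 in Wassilewskija, with no overlap between mutant and wild-type arrays. SWEET2 was 1.38-fold higher in psae1-3 stn7-1 (0.46 log2, SE 0.14, adjusted p = 0.0310) and 1.57-fold higher in psae1-3 (0.65 log2, SE 0.14, adjusted p = 0.00684). Without Wassilewskija replicate B neither passed (adjusted p = 0.0869 in psae1-3 and 0.242 in psae1-3 stn7-1). The call in psae1-3 stn7-1 was also lost without its own replicate A (0.0517) or B (0.192) and when only the 6 arrays of the set were fitted (0.0977). These leave-outs keep 1 array in a genotype, which is then assumed to vary like the other genotypes.

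SWEET13 varied widely in that set and passed in none of its comparisons. It read 208 and 123 in psae1-3 stn7-1 and 164 and 80.6 in psae1-3, against 134 and 240 in Wassilewskija, and all 3 genotypes overlapped. The change was −0.16 log2 in psae1-3 stn7-1 (SE 0.36 and adjusted p = 0.811) and −0.64 log2 in psae1-3 (SE 0.36 and adjusted p = 0.256). The higher of the 2 arrays was 1.70 times the lower in psae1-3 stn7-1, 2.03 times in psae1-3 and 1.80 times in Wassilewskija, against at most 1.78 times in a genotype of the Col-0 set.

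The other sucrose exporter, SWEET11 (AT3G48740), rose in the psad1-1 lines, where SWEET13 fell, and by smaller amounts. Its signal was 999, 860 and 1083 in psad1-1 stn7-1, 1099 and 1186 in psad1-1 and 738, 992 and 777 in stn7-1, against 814, 665 and 728 in Col-0. The lines with psad1-1 lay above Col-0 without overlap, and stn7-1 overlapped it. SWEET11 rose by 0.64 log2 in psad1-1 (SE 0.16 and adjusted p = 0.00520) and by 0.41 log2 in psad1-1 stn7-1 (SE 0.15 and adjusted p = 0.0321), and the change in stn7-1 was 0.18 log2 (SE 0.15 and adjusted p = 0.434). The call in psad1-1 was lost without psad1-1 replicate B (adjusted p = 0.0505). The call in psad1-1 stn7-1 was lost under 8 of 16 alternatives, with adjusted p up to 0.123 without its replicate C, and likewise without Col-0 replicates B (0.116) or C (0.0741) or its own replicate A (0.0805).

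In the psae1-3 lines SWEET11 differed between the double and the single mutant. It read 1214 and 1167 in psae1-3 stn7-1 and 844 and 600 in psae1-3, against 787 and 997 in Wassilewskija. The double mutant lay above psae1-3 by 0.74 log2 (SE 0.18, adjusted p = 0.0115), which was lost without psae1-3 replicate B (adjusted p = 0.142) or psae1-3 stn7-1 replicate A (0.0842). Against Wassilewskija neither mutant passed, at 0.43 log2 in psae1-3 stn7-1 (SE 0.18, adjusted p = 0.118) and −0.32 log2 in psae1-3 (SE 0.18, adjusted p = 0.264).

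**Figure D2:**
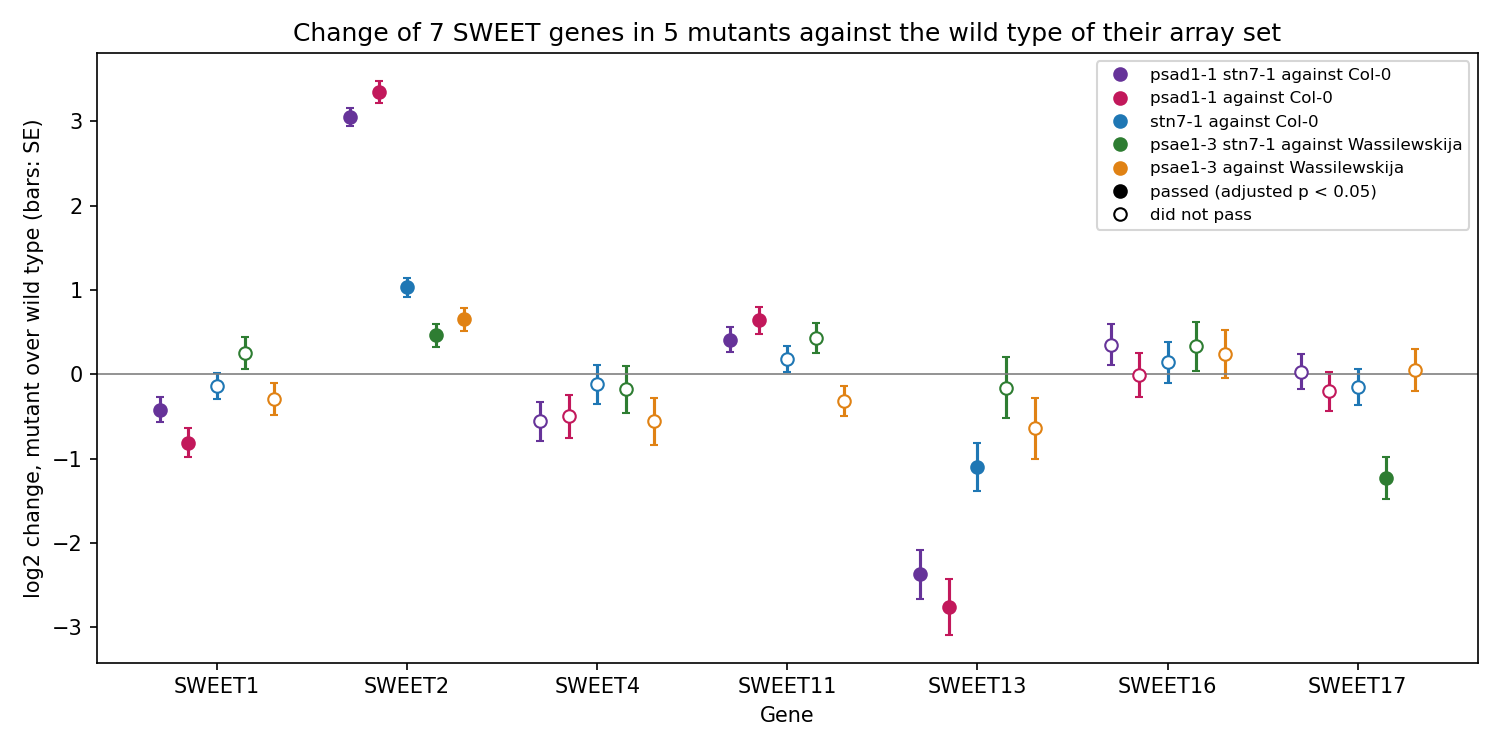
Change of the 7 tested SWEET genes (log2, mutant over the wild type of its array set, with SE) in 5 mutants; filled points passed the limma test at an adjusted p of 0.05 and open points did not. SWEET2 is above 0 and filled in all 5 mutants, SWEET13 is below 0 and filled in the 3 mutants of the Col-0 set, and SWEET17 is filled in psae1-3 stn7-1 alone (−1.23).

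SWEET1 (AT1G21460), a glucose carrier, fell in the lines with psad1-1. It read 172, 152 and 219 in psad1-1 stn7-1, 130 and 142 in psad1-1 and 207, 246 and 200 in stn7-1, against 267, 220 and 231 in Col-0. The psad1-1 arrays were the lowest of the set and overlapped with no other genotype. SWEET1 was 1.75-fold lower in psad1-1 (−0.81 log2, SE 0.17, adjusted p = 0.00146), a call kept under every alternative tried, and its change in stn7-1 was −0.14 log2 (SE 0.15, adjusted p = 0.580). The change in psad1-1 stn7-1 was −0.42 log2 (SE 0.15, adjusted p = 0.0408), and it was lost under 9 of 16 alternatives, among them array median scaling (adjusted p = 0.119) and the omission of Col-0 replicates A (0.141) or C (0.0691) or of its own replicates A (0.103) or B (0.181). In the Wassilewskija set SWEET1 read 100 and 104 in psae1-3 stn7-1 and 85.2 and 57.7 in psae1-3, against 84.4 and 87.0 in Wassilewskija, and passed in no comparison in the fit of all arrays.

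SWEET4 (AT3G28007), a hexose carrier of leaf veins, passed nowhere in the fit of all arrays. It read 35.1, 29.2 and 33.4 in psad1-1 stn7-1, 32.9 and 34.5 in psad1-1 and 46.8, 46.6 and 38.6 in stn7-1, against 49.4, 44.2 and 49.7 in Col-0. The arrays with psad1-1 lay below those without it, at −0.56 log2 in psad1-1 stn7-1 (SE 0.23, adjusted p = 0.0618) and −0.50 log2 in psad1-1 (SE 0.25, adjusted p = 0.128). When only the 11 arrays of the set were fitted, both passed (adjusted p = 0.00696 and 0.0226), as did psad1-1 stn7-1 against stn7-1 (0.0366, and 0.174 in the fit of all arrays). In the Wassilewskija set it read 26.4 and 35.9 in psae1-3 stn7-1 and 34.9 and 16.0 in psae1-3, against 31.5 and 38.5 in Wassilewskija. The 16.0 of psae1-3 replicate B was the lowest SWEET4 value of all 17 arrays. The SWEET4 change in psae1-3 against Wassilewskija was −0.56 log2 (adjusted p = 0.201), and it changed with the psae1-3 array left out, at −1.12 log2 without psae1-3 replicate A (0.0137) and 0.0 log2 without replicate B (0.995). In psae1-3 stn7-1 against psae1-3 it was 0.38 log2 (adjusted p = 0.433), with 0.94 log2 without psae1-3 replicate A (0.0288) and −0.18 log2 without replicate B (0.722). SWEET1 was at 0.54 log2 in that comparison (adjusted p = 0.0744), with 0.82 log2 without psae1-3 replicate A (0.0218) and 0.26 log2 without replicate B (0.4997).

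**Figure D3:**
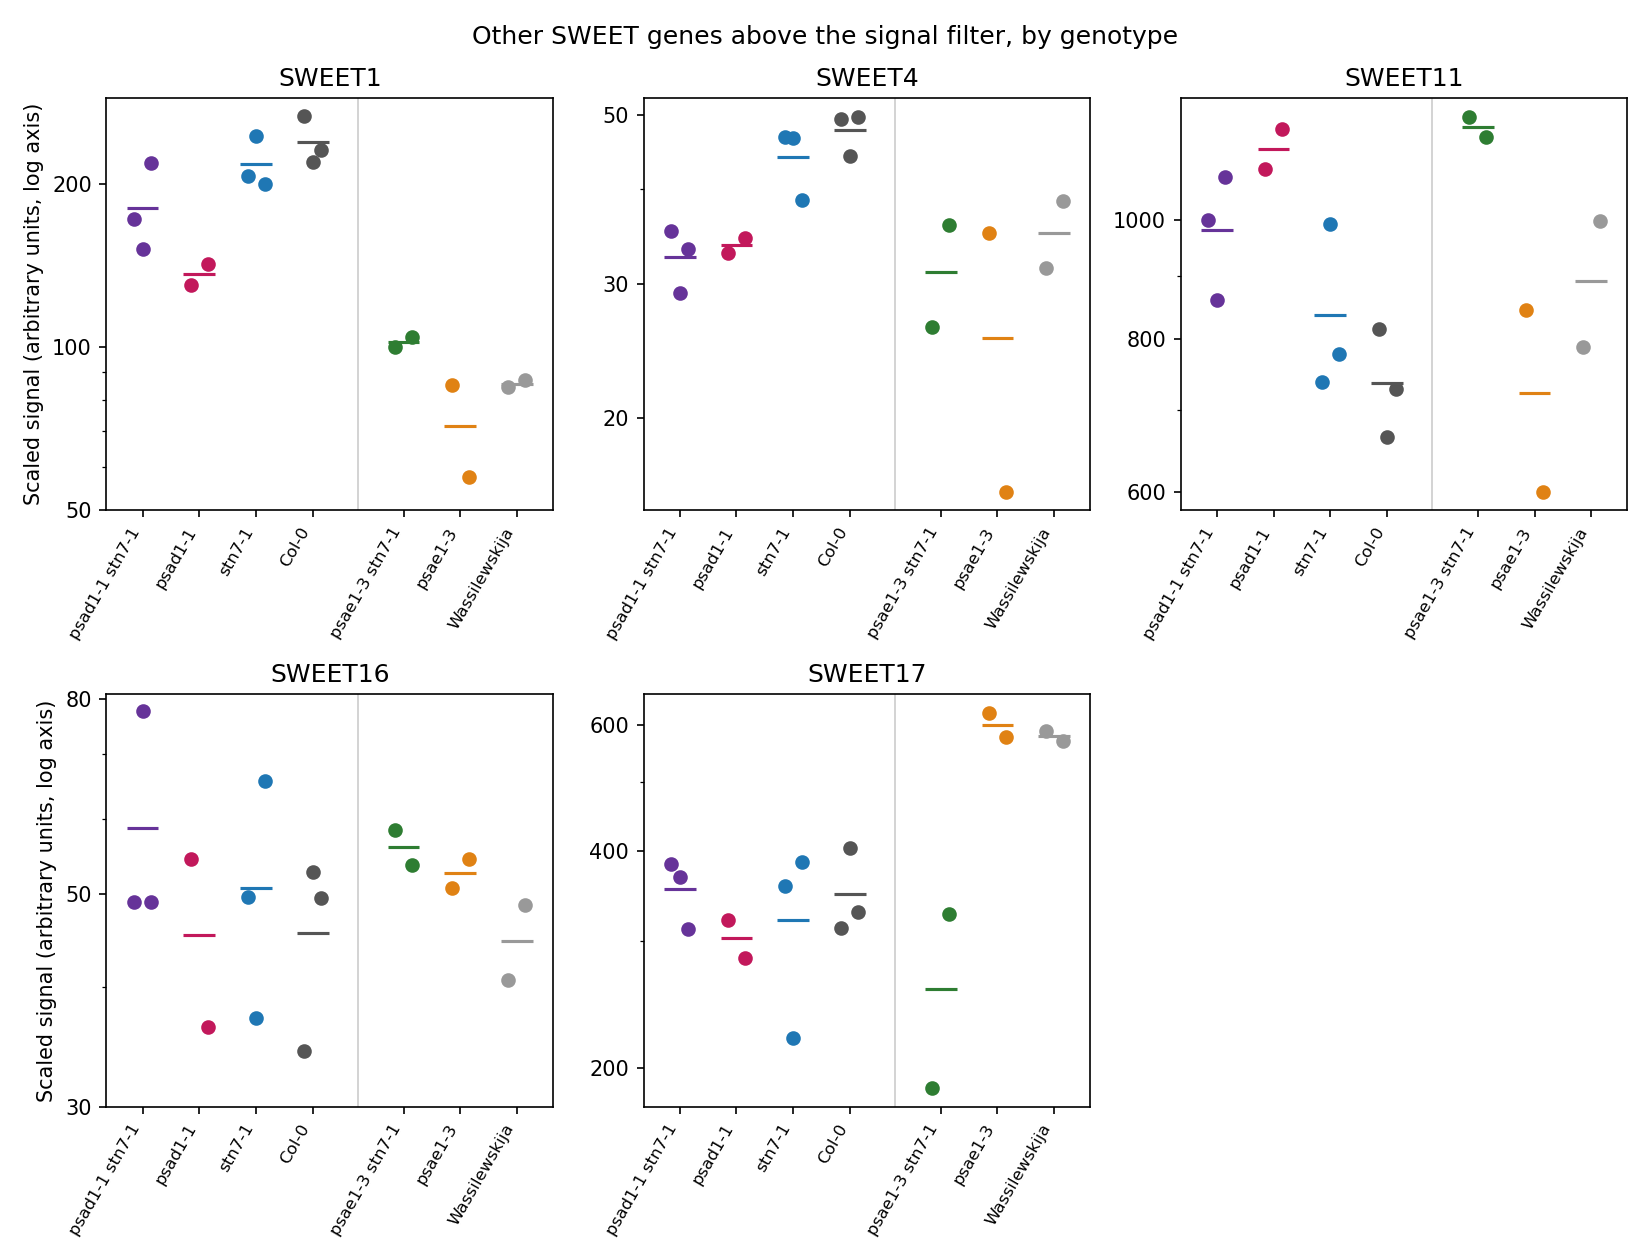
Scaled signal (arbitrary units, log axis with its own range in each panel) of the other 5 tested SWEET genes on each array, by genotype; points are arrays, bars are genotype means, and the grey line separates the array sets. In the Col-0 set the psad1-1 arrays lie below Col-0 for SWEET1 and SWEET4 and above it for SWEET11, and in the other set psae1-3 stn7-1 lies lowest for SWEET17 (187 and 327).

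Of the other vacuolar carriers, SWEET17 (AT4G15920), which carries fructose, fell in psae1-3 stn7-1 and passed in no mutant of the Col-0 set. It read 187 and 327 in psae1-3 stn7-1 and 624 and 577 in psae1-3, against 589 and 570 in Wassilewskija. The double mutant was 2.34-fold lower than Wassilewskija (−1.23 log2, SE 0.25, adjusted p = 0.00315) and 2.42-fold lower than psae1-3 (−1.28 log2, SE 0.25, adjusted p = 0.00286). Its arrays differed 1.75-fold from each other, and without replicate A neither call passed (adjusted p = 0.0608 and 0.0669). The psae1-3 single mutant did not differ from Wassilewskija beyond the spread (0.05 log2, SE 0.25, adjusted p = 0.919). In both calls of psae1-3 stn7-1, a mixed accession background and the mutations cannot be told apart.

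In the Col-0 set SWEET17 read 384, 369 and 312 in psad1-1 stn7-1, 322 and 284 in psad1-1 and 358, 220 and 386 in stn7-1, against 313, 405 and 330 in Col-0. All 3 mutants overlapped Col-0 and their changes lay between −0.20 and 0.03 log2. SWEET16 (AT3G16690), its closest relative at the vacuole, read 49.1, 77.7 and 49.1 in psad1-1 stn7-1, 54.4 and 36.4 in psad1-1 and 49.7, 37.1 and 65.7 in stn7-1, against 34.3, 52.8 and 49.6 in Col-0. It read 58.4 and 53.7 in psae1-3 stn7-1 and 50.8 and 54.4 in psae1-3, against 40.7 and 48.8 in Wassilewskija. SWEET16 passed in no comparison under any setting.

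The difference between the stn7-1 change in the psae1-3 background and that in Col-0 was added after the values had been seen, and it crosses the array sets. The Wassilewskija set holds no stn7-1 single mutant, so psae1-3, the accession and the array set cannot be told apart in this difference. It was −1.22 log2 for SWEET2 (SE 0.18, adjusted p = 0.000191), 1.57 log2 for SWEET13 (SE 0.46, adjusted p = 0.0217) and −1.12 log2 for SWEET17 (SE 0.32, adjusted p = 0.0199), 3 of 7 tested SWEET genes where 23.1% of all probe sets passed. For SWEET2, stn7-1 in the psae1-3 background gave −0.19 log2 (SE 0.14, adjusted p = 0.426) against 1.03 log2 in Col-0. The SWEET13 value was lost without psae1-3 replicate B (adjusted p = 0.129) or psae1-3 stn7-1 replicate A (0.135) and the SWEET17 value without psae1-3 replicate A (0.0713) or psae1-3 stn7-1 replicate A (0.147). Both were lost with no filter (0.0678 for SWEET13 and 0.0584 for SWEET17).

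Counted over the 7 tested SWEET genes, 2 rose and 2 fell in psad1-1 against Col-0, where 40.8% of all probe sets passed (19.5% higher and 21.3% lower). In psad1-1 stn7-1 against Col-0, 2 rose and 2 fell, where 41.2% of all probe sets passed (19.4% higher and 21.9% lower). In stn7-1 against Col-0, 1 rose and 1 fell, where 19.1% of all probe sets passed (9.76% higher and 9.31% lower). The other 3, 3 and 5 genes did not pass. The SWEET shares were not tested against those of the array. By size of change SWEET13 stood at rank 102 of 13648 from the lowest in psad1-1, 140 in psad1-1 stn7-1 and 220 in stn7-1.

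In psae1-3 stn7-1 against Wassilewskija, 1 SWEET gene rose and 1 fell, where 16.5% of all probe sets passed (7.56% higher and 8.90% lower). In psae1-3 against Wassilewskija, 1 rose and 0 fell, where 12.5% of all probe sets passed (5.47% higher and 7.00% lower). In psae1-3 stn7-1 against psae1-3, 1 rose and 1 fell, where 12.4% of all probe sets passed (7.60% higher and 4.84% lower). The split of all calls moved with the scaling. With arrays scaled to a common median the higher share of calls was 63.4% in psad1-1 (47.8% by the trimmed mean), 57.9% in psad1-1 stn7-1 (47.0%), 71.5% in stn7-1 (51.2%), 55.4% in psae1-3 stn7-1 against Wassilewskija (45.9%), 77.5% in psae1-3 (43.8%) and 41.8% in psae1-3 stn7-1 against psae1-3 (61.1%), while no called SWEET change turned its sign.

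The median change of the tested SWEET genes was −0.20 log2 in psad1-1, 0.03 in psad1-1 stn7-1 and −0.12 in stn7-1 against Col-0, with −0.02, −0.02 and −0.04 over all probe sets. It was 0.25 log2 in psae1-3 stn7-1 and −0.29 in psae1-3 against Wassilewskija, with −0.05 and −0.11 over all probe sets. The members passed the filter by their mean over all arrays, so counts and medians describe the 7 tested genes and not the family.

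As a description over the 17 arrays, with the mean of each set subtracted, the log2 signals of SWEET2 and SWEET13 had a Pearson r of −0.93. Within the sets r was −0.96 over 11 arrays and −0.59 over 6 arrays. SWEET13 went with SWEET4 (r = 0.92) and SWEET1 (r = 0.87) in the Col-0 set, and SWEET2 with SWEET11 (r = 0.83). Several pairs turned between the sets, such as SWEET1 with SWEET11, at −0.54 in the Col-0 set and 0.94 in the other. The points share genotypes and array sets, so the coefficients mostly describe differences between genotypes.

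The genes most like SWEET2 in a set of 7267 that includes it, by Pearson r over the 17 set-centred arrays, were AT5G14120 (r = 0.981), AT3G13000 (r = 0.978) and AT1G47530 (r = 0.978). AT5G14120 averaged 1867 ± 221 in psad1-1 stn7-1 (SD, n = 3), 2352 ± 294 in psad1-1 (n = 2) and 683 ± 59.7 in stn7-1 (n = 3), against 470 ± 37.3 in Col-0 (n = 3). It shares this order with SWEET2, for likeness to which it was picked over these same arrays. The most like SWEET13 were AT5G59050 (r = 0.95), AT3G57680 (r = 0.946) and AT1G67360 (r = 0.943). AT1G67360 averaged 110 ± 36.2 in psad1-1 stn7-1, 64.6 ± 3.89 in psad1-1 and 238 ± 27.1 in stn7-1, against 602 ± 80.7 in Col-0. It also fell in psae1-3, by 1.46 log2 (SE 0.30, adjusted p = 0.00592), to 163 ± 79.7 in psae1-3, against 427 ± 90.7 in Wassilewskija (n = 2 each), a call lost without psae1-3 replicate B (adjusted p = 0.0753) or Wassilewskija replicate B (0.0732).

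The 7 SWEET genes below the filter were near the background, and more so in the Wassilewskija set. Of their values in the Col-0 set, 11 of 77 were under the background of 8.15 (range 2.69 to 29.1), and in the other set 31 of 42 were (range 0.586 to 15.2). Part of the controls behind that threshold were read on the Col-0 set alone, and the Wassilewskija set was given no background of its own. SWEET9, known from nectaries, and SWEET10, the gene next to SWEET13 on chromosome 5, were under it on all 6 arrays of the Wassilewskija set. SWEET10 read 20.6, 15.8 and 10.0 in psad1-1 stn7-1, 10.9 and 8.48 in psad1-1 and 15.7, 9.49 and 8.49 in stn7-1, against 11.6, 6.36 and 20.3 in Col-0, with all genotypes overlapping. SWEET8, known for its role in pollen, ranged from 1.35 to 17.6 over the 17 arrays.

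**Figure D4:**
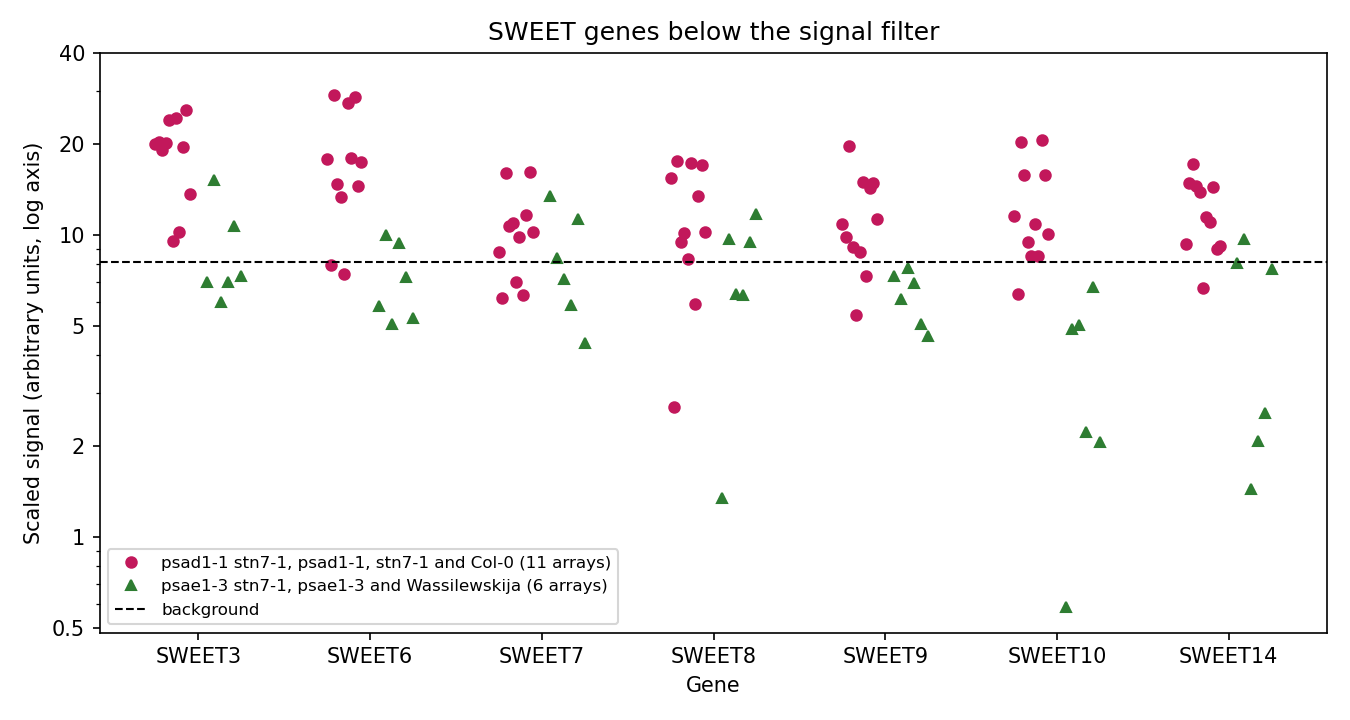
Scaled signal (arbitrary units, log axis) of the 7 SWEET genes below the signal filter on all 17 arrays; circles are the 11 arrays of the Col-0 set, triangles the 6 arrays of the Wassilewskija set, and the dashed line is the background of 8.15. Most triangles (31 of 42) lie under the line and most circles (66 of 77) above it. Part of the controls behind the line were read on the Col-0 set alone.

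When the filter was left out, 1 of these 7 genes passed, SWEET14, and in 1 comparison. It read 1.44 and 2.07 in psae1-3, against 8.04 and 9.65 in Wassilewskija (−2.29 log2, SE 0.52, adjusted p = 0.0241), and both psae1-3 arrays and 1 of the wild type were under the background. SAG29, the senescence-associated gene that is also named SWEET15, read 16.0, 4.22 and 18.8 in psad1-1 stn7-1, 5.95 and 1.62 in psad1-1 and 24.0, 20.9 and 16.8 in stn7-1, against 26.2, 19.0 and 25.1 in Col-0. Both psad1-1 arrays and 8 of all 17 were under the background, and the gene was below the filter and not tested. AtVEX1, also named SWEET5, ranged from 7.37 to 21.9 and was not tested either. SWEETIE was tested, ranged from 44.9 to 96.8 and passed in no comparison.

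The listed sucrose, hexose, polyol, inositol and plastid carriers, sucrose synthases and hexokinases were not analysed here. Of the whole list of other genes of sugar transport and sucrose metabolism, 7 had a named probe set, of which 5 were vacuolar carriers. The filter was passed by 6. They encode TMT1 and TMT2, which move sugar into the vacuole in exchange for protons, SFP1 and SFP2, of the ERD6-like family of monosaccharide transporters, ATSPS4F, a sucrose phosphate synthase, and cwINV6, named as an invertase and annotated as a fructan exohydrolase. TMT3 was below the filter. In psad1-1 against Col-0, 4 rose and 2 fell, where 19.5% of all probe sets were called higher and 21.3% lower. In psad1-1 stn7-1 against Col-0, 4 rose, 1 fell and 1 did not pass, where 19.4% were called higher and 21.9% lower. In stn7-1, where 19.1% of all probe sets passed, all 6 did not pass in limma. The unadjusted p was under 0.05 for 1 of them, a threshold at which the share of all probe sets is not given. That gene was TMT2 (−0.33 log2, unadjusted p = 0.0115, adjusted p = 0.0562).

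SFP1 rose most with psad1-1, to 404 ± 28.3 in psad1-1 stn7-1 (SD, n = 3) and 523 ± 26.5 in psad1-1 (n = 2), against 198 ± 50.5 in Col-0 (n = 3). Its changes were 1.06 log2 in psad1-1 stn7-1 (adjusted p = 5.77e-05) and 1.43 log2 in psad1-1 (adjusted p = 1.03e-05), and it read 195 ± 22.9 in stn7-1 (n = 3). The vacuolar carriers moved apart in psad1-1, with TMT1 at 0.85 log2 (adjusted p = 0.000458) and TMT2 at −0.74 log2 (adjusted p = 0.000249). In psad1-1 stn7-1 TMT2 fell by 0.70 log2 (adjusted p = 0.000142), and TMT1 rose by 0.37 log2 (adjusted p = 0.0471). This TMT1 call was lost when any 1 of the Col-0 arrays or psad1-1 stn7-1 replicate A or B was left out, with adjusted p up to 0.170, and with no filter (0.0724), no trend (0.0552) or only the array set in the fit (0.0548).

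The other 3 tested genes of the list also passed in psad1-1. ATSPS4F rose by 0.59 log2 (adjusted p = 0.00911, and 0.195 once psad1-1 replicate B was left out). SFP2 rose by 0.48 log2 (adjusted p = 0.0206), which was lost without either psad1-1 array or without Col-0 replicate A or B (adjusted p up to 0.113). The cwINV6 signal fell by 0.90 log2 (adjusted p = 0.0187). It averaged 11.8 ± 2.19 in psad1-1 (SD, n = 2), near the background, against 22.3 ± 5.47 in Col-0 (n = 3). This call was lost without psad1-1 replicate B. It was also lost without Col-0 replicate A or C (adjusted p = 0.0723 and 0.0523). In psad1-1 stn7-1 ATSPS4F rose by 0.54 log2 (adjusted p = 0.00757) and SFP2 by 0.51 log2 (adjusted p = 0.00680).

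In the Wassilewskija set the same list changed mainly in psae1-3 stn7-1. A mixed accession background of this double mutant and its mutations cannot be told apart in these changes. There TMT1 fell to 78.5 ± 14.4 in psae1-3 stn7-1, against 197 ± 16.0 in Wassilewskija (−1.34 log2, adjusted p = 6.41e-05). TMT2 fell to 160 ± 24.0, against 250.2 ± 21.3 (−0.65 log2, adjusted p = 0.00463, n = 2 each). The TMT2 call was lost without psae1-3 stn7-1 replicate B (adjusted p = 0.0672) or Wassilewskija replicate B (0.0542). ATSPS4F rose to 1253 ± 80.1 in psae1-3 stn7-1, against 657 ± 17.6 in Wassilewskija (0.93 log2, adjusted p = 0.00203). The signal of cwINV6 was 88.2 ± 4.25 in psae1-3 stn7-1 and 16.8 ± 1.09 in psae1-3, against 23.5 ± 0.266 in Wassilewskija, a rise of 1.91 log2 in the double mutant (adjusted p = 0.000576). Thus 2 rose, 2 fell and 2 did not pass in psae1-3 stn7-1 against Wassilewskija, where 7.56% of all probe sets were called higher and 8.90% lower. Against psae1-3, psae1-3 stn7-1 had cwINV6 higher by 2.39 log2 (adjusted p = 7.48e-05). This call was kept under every alternative that tested the gene, which excludes the one with the lowest 60% left out. In the same comparison TMT1 fell by 0.72 log2 and TMT2 fell by 0.47 log2 (limma, adjusted p = 0.0109 and 0.0361). The TMT1 call was lost without psae1-3 replicate A (0.0682) or psae1-3 stn7-1 replicate B (0.113). The TMT2 call was lost without either psae1-3 array or without psae1-3 stn7-1 replicate B, with adjusted p up to 0.253, and with only the array set in the fit (0.0884). In psae1-3 against Wassilewskija, where 12.5% of all probe sets passed, TMT1 was the 1 listed gene that passed, at −0.61 log2 (adjusted p = 0.0298). This call was lost without any 1 of the 4 arrays of the comparison, with adjusted p up to 0.177 without Wassilewskija replicate B. It was also lost with array median scaling (0.0723), quantile normalization (0.0571) and only the array set in the fit (0.0589). ATSPS4F, at 0.55 log2 (adjusted p = 0.0550), passed there with array median scaling (0.0141), with the lowest 60% left out (0.0486) and without psae1-3 replicate A (0.0354).

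**Figure D5:**
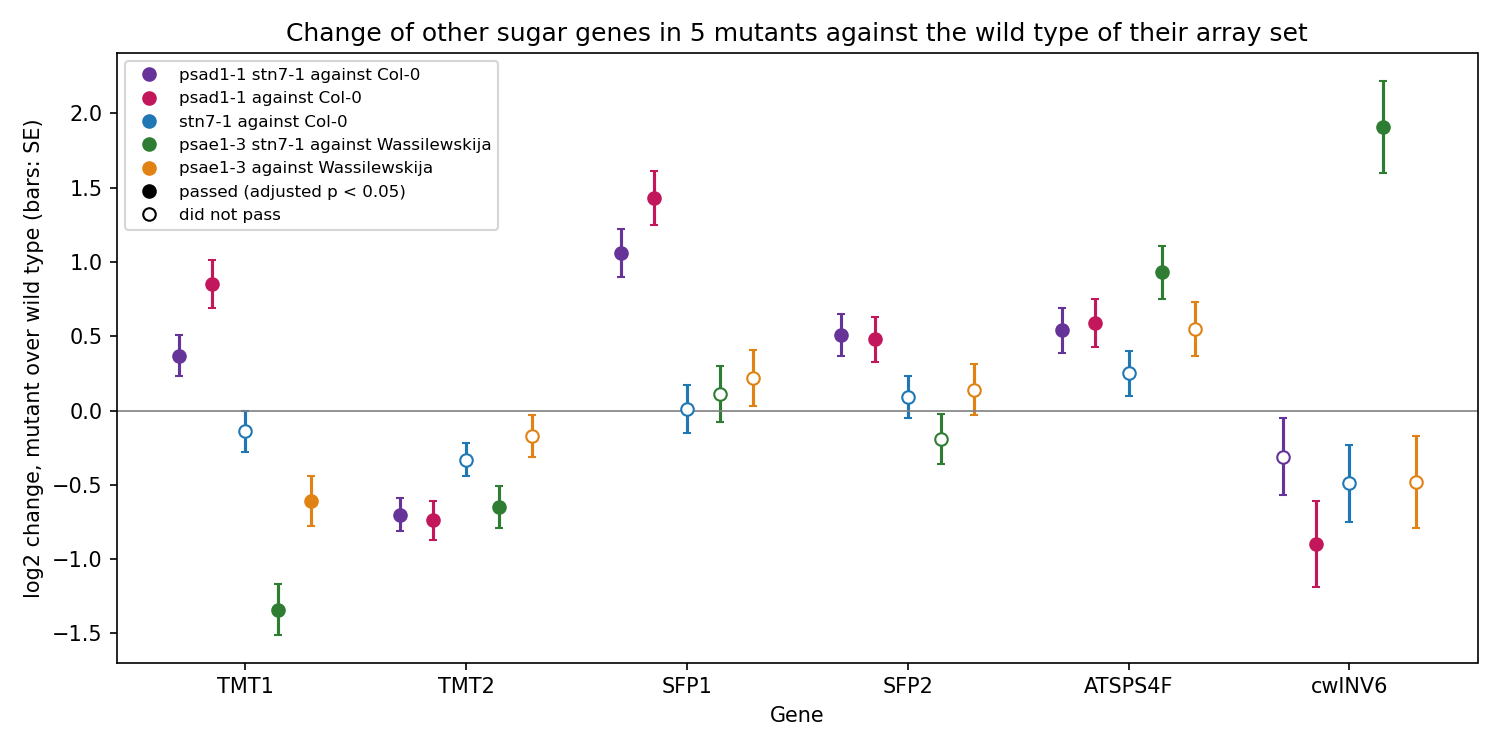
Change of 6 other sugar genes (log2, mutant over the wild type of its array set, with SE) in 5 mutants; filled points passed the limma test at an adjusted p of 0.05 and open points did not. TMT1 is above 0 in psad1-1 (0.85) and below 0 in psae1-3 stn7-1 (−1.34), and cwINV6 is highest in psae1-3 stn7-1 (1.91).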

How the data were processed

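The deposited values are signal intensities on a linear scale, which the authors made with GCOS and MAS5, per the submitters' processing notes, whose versions the sources used here do not give. They had a 2% trimmed mean of 100 on 11 arrays and 500 on 6, and each array was brought to 100. Values under the 10th percentile (1.57) were set to it and log2 was taken. From 22810 probe sets, 64 control probe sets and then the 40% with the lowest mean were left out, which kept 13648. A limma 3.58.1 model (R 4.3.3) with 1 mean per genotype over 17 arrays, a trend of the variance on the mean and 10 residual and 5.96 prior degrees of freedom gave two-sided tests with Benjamini-Hochberg adjustment at 0.05. The SE is that of the log2 change, and the SD is that of scaled signals between arrays of a genotype. Arrays were compared within their set, and the interaction is the stn7-1 change in psad1-1 minus that in Col-0. The background is the 95th percentile of 315 signals of target-free control probe sets. The dap, lys, phe and thr controls were used on the 11 arrays of the Col-0 set only, and the trp controls on all 17 arrays. Having 2 or 3 arrays a genotype limits the precision. The tests set each change against a moderated estimate of the spread between pools, shared by all genotypes and both array sets.

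Names came from an annotation table with 13513 probe sets of 1 gene and 503 of several, among 14016 listed. The text names all SWEET genes, the 3 genes most like SWEET2 and SWEET13, and the members of the sugar list that passed against a wild type. The listed epidermal marker FDH was left out, because the probe set of that name belongs to formate dehydrogenase. RCA and PRK were picked after their values were seen. The members and lists were chosen with earlier results of these data known. The alternatives were array median scaling, quantile normalization over all arrays or within each set, floors at 1 and at the 20th percentile, no filter or the lowest 60% left out, no trend, only the array set of the comparison, a replicate block and leaving out each array. The script was tested on simulated data. The replicate letters were checked as a pairing over 21 pairs of arrays of different genotypes with 1 letter. Deviations from the genotype means correlated at −0.21 to 0.301, with 3 pairs over 0.1, so the letters were not taken to pair samples.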

Additional observations from a re-analysis of the deposited data

Results flagged for a closer look

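The SWEET2 change with stn7-1 differed between backgrounds, as a test of the difference itself. It was smaller in psad1-1 than in Col-0 by an interaction term of −1.33 log2 (adjusted p = 0.00122), and smaller in psae1-3 than in Col-0 by −1.22 log2 (adjusted p = 0.000191). For SWEET13, which fell in stn7-1 against Col-0, the term was 1.49 log2 with psad1-1 (adjusted p = 0.0378) and 1.57 log2 with psae1-3 (adjusted p = 0.0217), calls lost under 12 of 21 and 3 of 19 alternatives, with adjusted p up to 0.177 and 0.135. For SWEET17 the difference between the psae1-3 background and Col-0 was −1.12 log2 (adjusted p = 0.0199), with a change of −1.28 log2 in psae1-3 and −0.15 log2 in Col-0, a call lost under 3 of 19 alternatives with adjusted p up to 0.147. The SWEET2 terms held under all alternatives tried. The terms with psae1-3 cross the array sets, were added after the values had been seen, and share the Col-0 and stn7-1 arrays with the terms for psad1-1. Without a stn7-1 single mutant in the Wassilewskija set, psae1-3, the accession and the array set cannot be told apart in them.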

How the results depend on the processing

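Over the tested SWEET genes and SWEETIE, 1260 values were recomputed under the alternatives: 1199 kept their direction and side of the threshold, 47 lost the call, 14 gained it, and no called value changed sign (49 values past the test in neither setting did). Of 160 recomputed counts, 127 stayed within 1.5 times. With no filter all 14 SWEET transporters were tested. Of these, 1 passed in stn7-1 against Col-0, 2 in psad1-1 stn7-1 against Col-0 and 1 in each of the interaction and the added difference. In psae1-3 against Wassilewskija 2 passed, 1 of them SWEET14, with both psae1-3 arrays under the background. At that setting 557 of 22746 probe sets passed as higher in the interaction and 586 as lower. For the other counts here the share of all probe sets is not given. The count in psad1-1 stn7-1 against Col-0 was also 2 with quantile normalization within each array set and with no trend. For the interaction it was 1 with quantile normalization, over all arrays or within each set, and with no trend. With only the array set in the fit, 1 passed in psae1-3 stn7-1 against Wassilewskija. Leaving out 1 array gave 1 to 2 for stn7-1, 3 to 4 for psad1-1 and 2 to 3 for psad1-1 stn7-1 against Col-0. It gave 0 to 2 for psae1-3 and for psae1-3 stn7-1 against Wassilewskija, 0 to 4 for psae1-3 stn7-1 against psae1-3, 0 and 2 at every omission for psad1-1 stn7-1 against psad1-1 and against stn7-1, 1 to 2 for the interaction and 1 to 5 for the added difference. With the replicate block 3 SWEET genes passed in psad1-1 stn7-1 against Col-0 in place of 4 (SWEET1, adjusted p = 0.054), and the other counts did not move. The replicate letters of different genotypes are no known pairing. Array median scaling put the median change of all probe sets at 0.12 log2 in psad1-1 against Col-0 (−0.02 by the trimmed mean) and at 0.06 in psae1-3 against Wassilewskija (−0.11). No SWEET gene has more than 1 probe set, so averaging probe sets could not change a value. The added difference gives no value within an array set. For the other genes named, 1880 values were recomputed: 1776 kept their side, 76 lost the call, 28 gained it and no called value changed sign. Signals near the background limit what can be said of the 7 untested members.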
